A study of Homo sapiens with 12 samples.

Results

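Aminoacyl-tRNA synthetases are the enzymes that join each amino acid to its tRNA, and their mRNAs were followed here in HK-2 cells exposed to 2,8-dihydroxyadenine (DHA). The members were found by gene symbol, older symbols included, and not by their level: 35 genes, 19 for cytosolic and 16 for mitochondrial enzymes, among 57473 genes in the deposited table. All 35 were among the 16776 genes that passed the filter on low values, 3 or more libraries with a value of 1 or higher. HK-2 is an established line of human kidney proximal tubule epithelium, and DHA is the poorly soluble purine that forms stones in people who lack adenine phosphoribosyltransferase. For 72 h the cells received plain medium (control) or a DHA suspension of 60, 120 or 240 ug/ml, called the low, middle and high dose below, and each of the 4 groups has 3 libraries. The labels name no carrier for the suspension and no carrier control. They do not say whether libraries of one group are separate cultures, so the p-values reflect the spread among these libraries only and may be technical.

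A synthetase first activates its amino acid with ATP and then transfers it to the tRNA whose anticodon calls for it, so these enzymes set the genetic code in every cell. Human cells keep separate sets for the cytosol and for the mitochondrion, all encoded in the nucleus, and by convention the symbols end in 1 and 2. A few genes serve more than one purpose: GARS1 and KARS1 each make both the cytosolic and the mitochondrial enzyme, EPRS1 joins the enzymes for glutamate and proline in a single chain, and FARSA and FARSB make the subunits of the cytosolic phenylalanine enzyme. Mitochondria have no glutamine enzyme of their own: glutamate is placed on the glutamine tRNA and then amidated. When a cell runs short of an amino acid, uncharged tRNA activates the kinase GCN2 (EIF2AK4), which leads to translation of the transcription factor ATF4, and many cytosolic synthetase genes are known ATF4 targets.

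The deposited values are a normalized signal per transcript, summed here per gene, and library totals ran from 791808 to 1228979, lower in every DHA library than in the controls. The read depth is unknown. Of 16 tubule markers, 10 had a control mean above 1 and passed the filter. At 240 ug/ml 6 of these 10 were lower than in control, as were 23.5% of all genes tested. The median log2 fold change over the 10 was -0.41. The 6 were KRT8, CDH1, CDH6, EPCAM (236 ± 5.96 to 161 ± 15.0), GGT1 (176 ± 18.4 to 99.5 ± 17.0) and SLC5A2 (3.87 ± 0.666 to 2.03 ± 0.351), and PAX8, KRT18 and KRT19 were among those not called. The other 6, LRP2, CUBN, SLC34A1, AQP1, ANPEP and SLC22A6, did not pass the filter, with LRP2 and SLC22A6 at 0 in every library. Of 6 leukocyte markers only CD68 had a control mean above 1, and CD68 was lower at 240 ug/ml (-0.61 on the log2 scale). PTPRC did not pass the filter. Endothelial markers summed to at most 0.4 in any library. The summed signal of 7 fibroblast markers was 246.9 to 342.3 in controls and 38.8 to 65.9 at 240 ug/ml, mostly through LUM, an extracellular matrix proteoglycan. The part of these marker changes in the results below was not tested. Across a culture, fewer cells of a kind and less RNA per cell cannot be told apart.

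Most cytosolic synthetase mRNAs were higher with DHA, in growing number from dose to dose, and fewer of the mitochondrial ones were. At 240 ug/ml, 15 of the 19 cytosolic genes were higher than in control and 1, QARS1, was lower. At that dose 6 of the 16 mitochondrial genes were higher and 1, RARS2, was lower. Among all genes tested in this comparison, 43.1% were called, 19.7% higher and 23.5% lower (limma, Benjamini-Hochberg adjusted p under 0.05). The median log2 fold change was 0.59 over the cytosolic genes and 0.14 over the mitochondrial genes, beside -0.03 over all genes.

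The cytosolic counts grew from dose to dose. At 60 ug/ml, 7 cytosolic and 5 mitochondrial genes were higher than in control, where 18.9% of all genes were called, 8.87% of all genes higher and 10.1% lower. None of the 35 was called lower there by limma. At an unadjusted p under 0.05, 1 gene of each set was lower. At 120 ug/ml, 13 cytosolic genes were higher and 1 lower, against 5 mitochondrial genes higher and 1 lower. The share of all genes called at that dose was 36.6%, with 15.9% higher and 20.8% lower. The cytosolic median was 0.20 at 60 and 0.53 at 120 ug/ml, and the mitochondrial median was 0.15 and 0.14. These 3 comparisons share the control libraries.

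**Figure D1:**
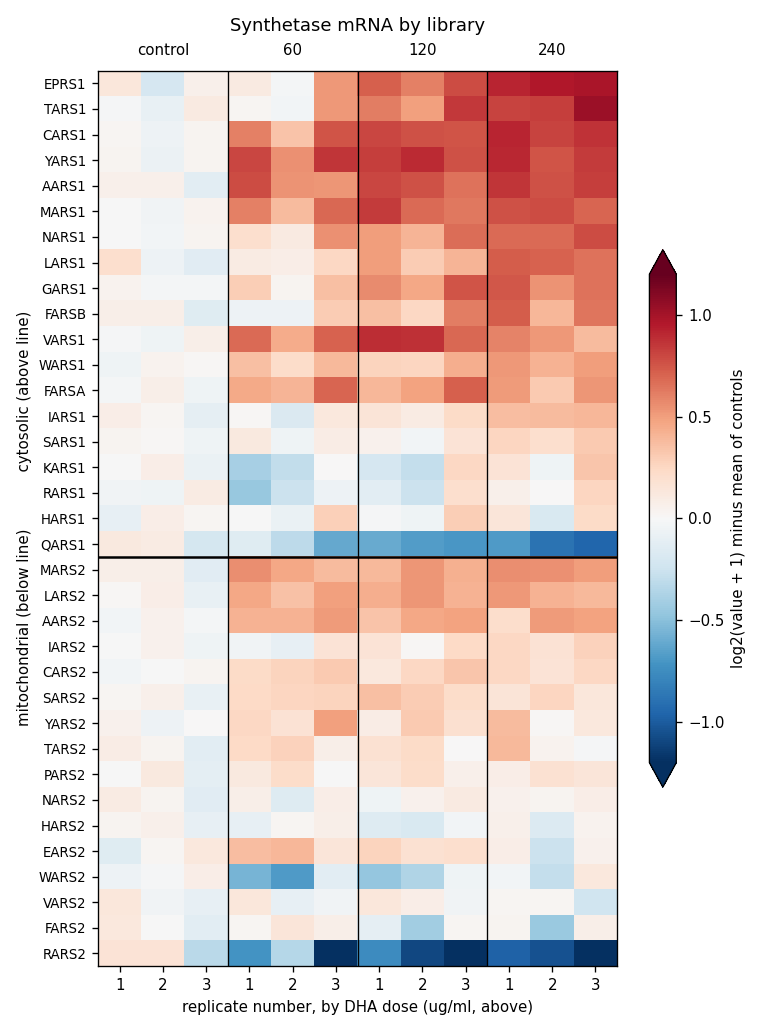
Change of each of the 35 synthetase mRNAs in each of the 12 libraries, as log2(value + 1) minus the mean of the 3 controls, with cytosolic genes above the line and mitochondrial genes below it, ordered by their change at 240 ug/ml. Most cytosolic rows are redder at 240 than at 60 ug/ml, but VARS1 and FARSA are not, HARS1 stays pale, KARS1 and RARS1 are blue at 60 ug/ml in most libraries and QARS1 is blue at every dose; RARS2 passes the lower end of the colour scale in some libraries.

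The direction of these counts depends in part on how libraries are scaled, because the deposited totals fell with DHA. With every library scaled to the same total, the all-gene median at 240 ug/ml moved up by 0.36 on the log2 scale. The share of all genes called higher became 42.9%, and the share called lower 9.12%. Under that scaling 18 cytosolic genes were higher and QARS1 stayed lower, and 12 mitochondrial genes were higher. The cytosolic median was then 0.98 and the mitochondrial median 0.53, beside 0.33 over all genes. This scaling moves all genes of a library nearly alike, so it could not change the order of the sets. Values below are on the deposited scale.

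The sets were also compared within each library, since the ratio of their sums does not depend on how that library is scaled. The 19 cytosolic mRNAs summed to 1740 ± 37.0 (SD, n = 3) in control, 1992 ± 181 at 60, 2215 ± 125 at 120 and 2398 ± 84.1 at 240 ug/ml. The 16 mitochondrial mRNAs summed to 308 ± 10.5, 338 ± 10.9, 339 ± 6.43 and 345 ± 15.9 in the same order. All DHA libraries thus lay above the controls in both sums, and the mitochondrial sum was level from 60 ug/ml upward. The cytosolic sum was 5.65-fold ± 0.136 the mitochondrial sum in control and 6.96-fold ± 0.174 at 240 ug/ml.

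A mean of log2(value + 1) over each set gives every gene the same weight. The cytosolic mean exceeded the mitochondrial mean by 2.36, 2.32 and 2.41 in the control libraries. The difference was 2.47, 2.36 and 2.66 at the low dose, 2.68, 2.61 and 2.85 at the middle dose, and 2.76, 2.77 and 2.88 at the high dose. Every library at 120 and 240 ug/ml lay above every control, whereas the 60 ug/ml libraries overlapped the controls. No p is given for a score over members that were picked with results of these data known.

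**Figure D2:**
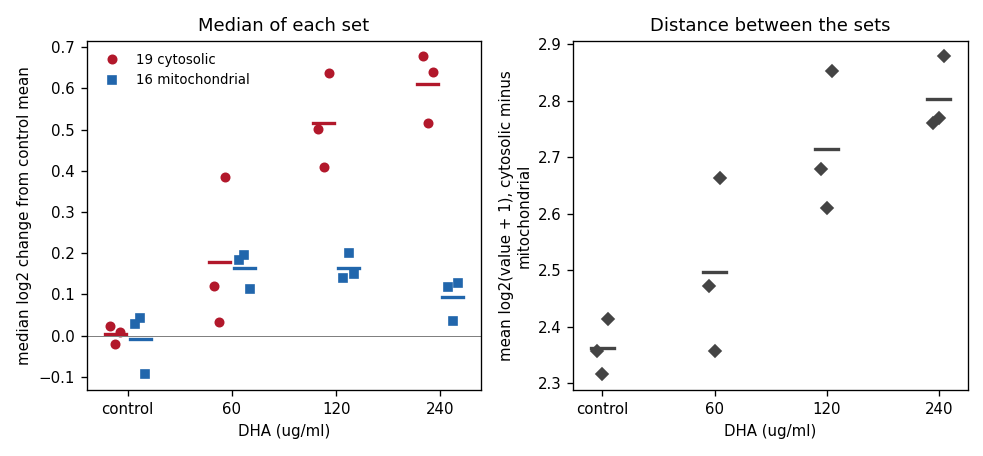
Left, the median over each set of the log2(value + 1) change from the control mean, 1 point per library, with bars at group means; right, the mean log2(value + 1) of the 19 cytosolic genes minus that of the 16 mitochondrial genes. Cytosolic group means climb with dose while the mitochondrial points of the DHA libraries lie between 0.04 and 0.20, and the distance between the sets goes from 2.36 in control to 2.80 at 240 ug/ml.

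One sequence was looked for in the promoters. The C/EBP-ATF response element, the composite site bound by ATF4, was searched in the form TGATGCAA on both strands, in RefSeq promoters of build GRCh38.p14 that run from 250 bases before to 50 after the first listed start. Of the members, 30 had an entry, and LARS1, VARS1, YARS1, AARS2 and VARS2 had none. The element was present in 6 of 16 cytosolic promoters (37.5%) and in 0 of 14 mitochondrial promoters, beside 252 of 27305 promoters in the whole table (0.923%). All 6 of these genes were higher at 240 ug/ml, and so were 6 of the 10 cytosolic genes whose entry held no match. LARS1, VARS1 and YARS1, which could not be searched, were also higher at that dose, as were 19.7% of all genes. The 6 matches are shown so that the element can be read in its context. Each stretch is 56 bases, 5′ to 3′ on the gene's own strand, with the element in capitals, written TTGCATCA where it lies on the opposite strand.
AARS1, chr16:70289678-70289733, minus strand: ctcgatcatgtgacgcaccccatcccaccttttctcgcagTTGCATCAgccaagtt
CARS1, chr11:3057410-3057465, minus strand: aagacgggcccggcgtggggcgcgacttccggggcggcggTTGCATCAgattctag
IARS1, chr9:92293695-92293750, minus strand: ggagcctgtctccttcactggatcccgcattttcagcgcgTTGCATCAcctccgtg
MARS1, chr12:57488024-57488079, plus strand: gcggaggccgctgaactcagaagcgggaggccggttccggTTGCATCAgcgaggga
NARS1, chr18:57621807-57621862, minus strand: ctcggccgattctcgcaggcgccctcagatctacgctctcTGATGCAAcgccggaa
TARS1, chr5:33440927-33440982, plus strand: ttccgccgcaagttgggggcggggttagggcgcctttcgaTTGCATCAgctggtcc

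Counted from the first transcribed base as 1, the element began at -187 in AARS1, -13 in IARS1, -4 in MARS1, -2 in CARS1, 3 in TARS1 and 15 in NARS1, so in all but AARS1 it lay close to the start. A looser form, TGATGNAA, which contains the first, was found in the same 6 cytosolic promoters, in 1 of 14 mitochondrial promoters (7.14%), that of YARS2, and in 3.67% of all promoters. These are matches of letters and not measured sites of binding. The genes higher at 240 ug/ml with an entry and no match in these windows were EPRS1, FARSA, FARSB, GARS1, SARS1 and WARS1.

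The cytosolic genes that are often listed as targets of ATF4 were all higher at the top dose on the gene sum, SARS1 by the least, and SARS1 was not called on its protein-coding transcripts alone. This list of 10 holds AARS1, CARS1, EPRS1, GARS1, IARS1, MARS1, NARS1, SARS1, TARS1 and WARS1. Of these, 4, 8 and 10 were higher at 60, 120 and 240 ug/ml, with medians of 0.25, 0.62 and 0.73. Among all genes 8.87%, 15.9% and 19.7% were higher at these doses. Of the other 9 cytosolic genes, 3, 5 and 5 were higher, and QARS1 was lower at 120 and 240 ug/ml, with medians of 0.06, 0.40 and 0.45. The list comes from general knowledge and was used with results of these data known. The difference between the lists was not tested.

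EPRS1 (ENSG00000136628, chr1:219968601-220046658 in GENCODE release 29), which charges glutamate and proline, had the largest rise of the 35 at the high dose on the log2 scale. Its signal was 99.1, 78.3 and 93.8 in control, 97.3, 88.6 and 129 at the low dose, 149, 138 and 155 at the middle dose, and 171, 176 and 179 at the high dose. The low-dose libraries overlapped the controls, and those at the middle and high doses all lay above them. The log2 fold change was 0.20 ± 0.13 (SE) at the low dose with an adjusted p of 0.313, and 0.95 ± 0.13 at the high dose with an adjusted p of 1.71e-04 (limma, Benjamini-Hochberg).

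TARS1 (ENSG00000113407, chr5:33440696-33469539), the threonine enzyme, followed the same course. Its signal was 119, 113 and 130.0 in control, 123, 118 and 173 at the low dose, 185, 170.4 and 218 at the middle dose, and 212, 215 and 247 at the high dose. Only replicate 3 of the low-dose group stood clearly above the controls, and all libraries of the higher doses did. The log2 fold change at the high dose was 0.89 ± 0.14, with an adjusted p of 4.96e-04 by limma.

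CARS1, AARS1 and YARS1, the enzymes for cysteine, alanine and tyrosine, had most of their rise in place by 60 ug/ml. CARS1 had a signal of 32.0, 30.1 and 32.3 in control, 48.3, 40.1 and 53.8 at the low dose, 55.5, 54.0 and 53.9 at the middle dose, and 60.0, 55.9 and 58.2 at the high dose. AARS1 had 36.5, 36.6 and 32.0 in control, 61.0, 51.2 and 50.9 at the low dose, 61.8, 60.0 and 55.5 at the middle dose, and 64.0, 60.0 and 62.9 at the high dose. Every DHA library of both genes lay above every control.

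YARS1 (ENSG00000134684, chr1:32775237-32818153) was at 105, 97.1 and 104 in control and at 178, 149 and 185 at the low dose. It stood at 181, 190.3 and 174 at the middle dose and at 192, 172 and 183 at the high dose. No library with DHA overlapped the controls and the dose groups overlapped each other. At 60 ug/ml the log2 fold changes were 0.73 for YARS1, 0.62 for AARS1 and 0.57 for CARS1, and at the high dose they were 0.83, 0.82 and 0.86. All 6 passed the limma test, with adjusted p-values from 4.25e-05 to 0.0024.

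GARS1, the gene that supplies glycine charging to both compartments, rose as the cytosolic genes did. Its signal was 90.3, 86.5 and 86.3 in control, 108, 89.7 and 113 at the low dose, 131, 122 and 149 at the middle dose, and 148, 128 and 138 at the high dose. From 120 ug/ml on, all libraries lay above the controls. The log2 fold change at the high dose was 0.65 ± 0.10, with an adjusted p of 4.25e-04 by limma.

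KARS1, the lysine gene that also supplies both compartments, did not pass the test at any dose. It had 148, 156 and 139.7 in control, 112, 120.3 and 148 at the low dose, 128, 121 and 176 at the middle dose, and 166, 143 and 187 at the high dose. Every DHA group overlapped the controls, and replicate 3 was the highest library in each DHA group. The log2 fold change at the high dose was 0.15, with a 95% interval from -0.18 to 0.48, which includes changes in both directions.

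The other cytosolic genes called higher at the high dose were MARS1 (0.75), NARS1 (0.71), LARS1 (0.70), FARSB (0.59), VARS1 (0.50), WARS1 (0.48), FARSA (0.45), IARS1 (0.38) and SARS1 (0.26), with log2 fold changes in parentheses. For SARS1, the serine enzyme, the processed transcript SARS-206 was at 15.8 ± 1.59 in control and 31.7 ± 3.04 at the high dose, and the coding SARS-201 at 114 ± 3.71 and 122 ± 8.13. Over protein-coding transcripts only its log2 fold change was 0.09 with an adjusted p of 0.402 (limma), and its call was lost in 4 of 24 alternatives. VARS1, the valine enzyme, had its highest mean at the middle dose, where its signal was 53.2, 52.9 and 46.3, against 28.2, 27.3 and 29.8 in control and 43.5, 41.1 and 37.3 at the high dose. All DHA libraries of VARS1 lay above the controls. HARS1 and RARS1, for histidine and arginine, were not called, with log2 fold changes at the high dose of 0.07 (95% interval -0.23 to 0.36) and 0.11 (-0.17 to 0.39).

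QARS1 (ENSG00000172053, chr3:49095932-49105135), the glutamine enzyme, was the only cytosolic gene called lower at any dose. It had the highest control signal of the 35, at 231, 227 and 183. It stood at 192, 171 and 139 at the low dose, 139, 133 and 131 at the middle dose, and 132, 114 and 109.5 at the high dose. The low-dose libraries overlapped the controls and all libraries at the higher doses lay below them. On the log2 scale it fell by 0.66 at the middle dose with an adjusted p of 0.00213, and by 0.84 ± 0.13 at the high dose with an adjusted p of 3.6e-04 (limma). Its call at the high dose was kept in all 24 alternatives, and the equal-totals scaling gave the smallest size, -0.41.

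QARS1 was also the member with the largest share of signal on transcripts annotated as retaining an intron, 36.9% ± 2.40 in control and 32.1% ± 2.29 at the high dose. Its main protein-coding transcript, QARS-201, had 113 ± 12.4 in control and 66.3 ± 9.22 at the high dose. Counting protein-coding transcripts only, the log2 fold change at the high dose was -0.79, with an adjusted p of 9.36e-05. The coding and the intron-retaining signal thus both had lower values.

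**Figure D3:**
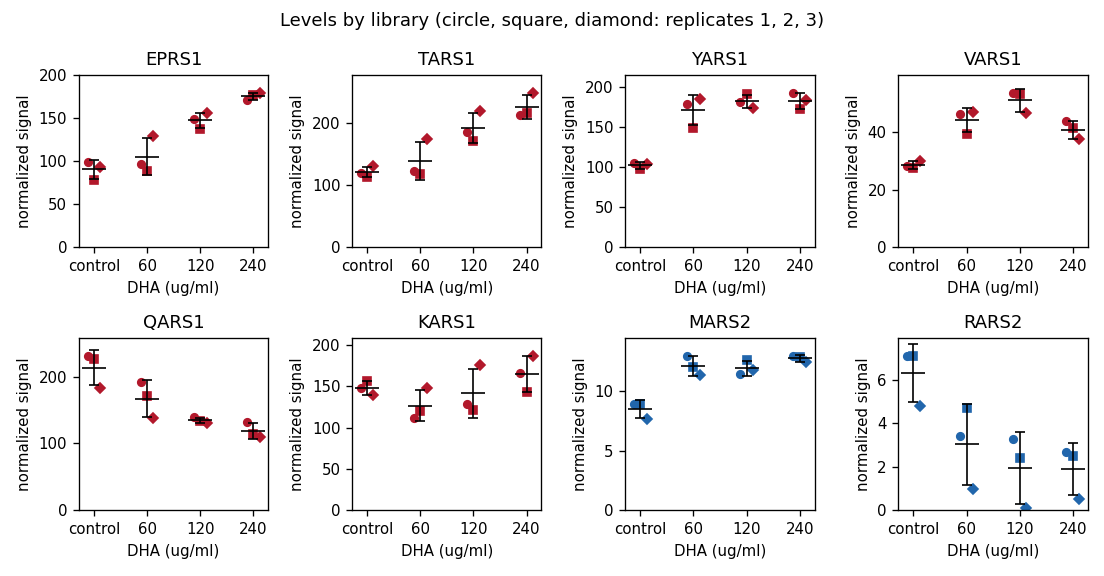
Normalized signal of 8 synthetase genes in each library, by dose, with bars at the group mean ± SD (n = 3) and a linear axis from 0. EPRS1 and TARS1 climb through 240 ug/ml, YARS1 is already high at the low dose, VARS1 is highest at the middle dose, QARS1 falls, and replicate 3 is the lowest RARS2 library in every group.

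Many cytosolic synthetases sit in a large multisynthetase complex, and its members moved in both directions. The complex genes are EPRS1, IARS1, LARS1, MARS1, QARS1, RARS1 and KARS1. Of these 7, 4 were higher and QARS1 lower at the high dose, with a median of 0.38. Of the 12 cytosolic genes outside the complex 11 were higher, with a median of 0.62. Among all genes 19.7% were higher and 23.5% lower at that dose. By catalytic fold, 8 of 10 class I cytosolic genes were higher and 1 lower, and 7 of 9 class II genes were higher, with medians of 0.60 and 0.59. EPRS1 was counted in class I only, although it also charges proline and PARS2, the mitochondrial proline enzyme, is in class II. Neither the difference by complex nor that by class was tested.

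The mitochondrial genes had far lower signals, with a median over the set of 12.4 in control against 91.9 for the cytosolic set. Signal of this kind, if it is scaled to transcript length as the totals hint, allows levels to be set side by side between genes, and that scaling is not stated. IARS2 was the most abundant at 90.5 ± 3.32 in control and VARS2 the least at 1.37 ± 0.208. The 6 called higher at the high dose were MARS2, LARS2, AARS2, IARS2, CARS2 and SARS2, with log2 fold changes from 0.19 to 0.54.

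MARS2 (ENSG00000247626, chr2:197705369-197708387), the mitochondrial methionine enzyme, had the largest rise. Its signal was 8.9, 8.9 and 7.6 in control, 12.9, 12 and 11.3 at the low dose, 11.4, 12.6 and 11.7 at the middle dose, and 12.9, 12.8 and 12.4 at the high dose. All DHA libraries lay above the controls and the dose groups overlapped each other. The log2 fold change was 0.47 ± 0.08 at the low dose and 0.54 ± 0.08 at the high dose, with adjusted p-values of 0.0038 and 4.4e-04 by limma.

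LARS2 and AARS2, the mitochondrial leucine and alanine enzymes, had the same flat course. LARS2 was at 10.1, 10.6 and 9.3 in control, 14.2, 13.0 and 14.5 at the low dose, 13.9, 14.9 and 13.7 at the middle dose, and 14.8, 13.7 and 13.4 at the high dose. AARS2 was at 8.8, 9.4 and 8.9 in control, 12.4, 12.4 and 13.3 at the low dose, 11.7, 12.8 and 13.0 at the middle dose, and 10.6, 13.3 and 13.0 at the high dose. No DHA library of either gene overlapped the controls.

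IARS2, for isoleucine, rose late. It was at 90.1, 94.0 and 87.4 in control, 87.6, 84.3 and 102 at the low dose, 102, 91.6 and 107 at the middle dose, and 107, 102 and 110.1 at the high dose. Only the high-dose libraries were all above the controls, and the adjusted p there was 0.0434 by limma. The calls of IARS2, CARS2 and SARS2 at the high dose were lost in 11, 6 and 16 of 24 alternatives, whereas those of LARS2 and MARS2 were kept in all 24 and that of AARS2 in 23. The mitochondrial count at the high dose went from 6 to 3 without control replicate 1, without control replicate 2, without replicate 1 of the high-dose group, or without its replicate 3.

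RARS2 (ENSG00000146282, chr6:87514378-87590003), the mitochondrial arginine enzyme, had the largest fall of the 35, from a low level. Its signal was 7.1, 7.1 and 4.8 in control, 3.4, 4.7 and 1.0 at the low dose, 3.3, 2.4 and 0.1 at the middle dose, and 2.7, 2.5 and 0.5 at the high dose. All DHA libraries lay below the controls, and replicate 3 was the lowest library in every group. The log2 fold change was -1.43 ± 0.53 at the high dose, with an adjusted p of 0.0471 by limma, just inside the threshold. That call was lost in 12 of the 23 alternatives that gave a value, with adjusted p-values from 0.00127 to 0.173 and log2 fold changes from -1.95 (pseudocount 0.1) to -0.73 (pseudocount 5).

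The other mitochondrial genes, EARS2, FARS2, HARS2, NARS2, PARS2, TARS2, VARS2, WARS2 and YARS2, were not called against control at any dose. FARS2 had the lowest log2 fold change among them at the high dose, -0.11 with a 95% interval from -0.44 to 0.21. Its signal was 11.7, 10.6 and 9.6 in control, 10.8, 11.8 and 11.2 at the low dose, 9.8, 7.7 and 10.8 at the middle dose, and 10.9, 7.5 and 11.2 at the high dose. Every dose group overlapped the controls. VARS2 and WARS2 followed at -0.06 each. VARS2, for valine, was at 1.6, 1.3 and 1.2 in control, 1.6, 1.2 and 1.3 at the low dose, 1.6, 1.5 and 1.3 at the middle dose, and 1.4, 1.4 and 1.0 at the high dose, again with overlap throughout.

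WARS2, for tryptophan, was at 13.3, 13.7 and 14.7 in control, 9.1, 8.3 and 12.6 at the low dose, 9.8, 10.6 and 13.4 at the middle dose, and 13.6, 11.2 and 15.3 at the high dose. All of its low-dose libraries lay below the controls, with an adjusted p of 0.0639, and those at the high dose overlapped them. For EARS2, a processed transcript of 599 bases carried 73.2% of the signal and protein-coding transcripts only 18.4% ± 3.52 in control, so its sum says little about the enzyme's mRNA.

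For 17 pairs of a cytosolic and a mitochondrial enzyme for the same amino acid, the 2 signals were compared in each library. The measure was the difference of their log2(value + 1), called the log2 ratio here. The added 1 weighs on low genes such as VARS2 and RARS2, so this measure is not wholly free of library scaling. EPRS1 and FARS2 each enter 2 pairs, so the pairs are not independent. At 240 ug/ml the log2 ratio lay above all controls in 15 pairs, and the other 2, HARS1 with HARS2 and SARS1 with SARS2, overlapped. In this comparison 43.1% of all single genes were called by limma, which is another measure. No like count was made over other pairs of genes. The median change of the log2 ratio was 0.57, and all 17 changes were positive. No pair had its members called in opposite directions at 240 ug/ml.

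At 60 ug/ml the picture was mixed, with 5 pairs above all controls, 2 below and 10 overlapping, and a median change of 0.09. The pairs below were LARS1 with LARS2 and SARS1 with SARS2. At 120 ug/ml, 13 pairs were above, 1 below and 3 overlapping, with a median of 0.51. Of all single genes, limma called 18.9% at 60 and 36.6% at 120 ug/ml, again another measure. CARS1 and CARS2 were nearly equal in control, with a plain ratio of signals of 1.04. Their log2 ratios, from log2(value + 1), were 0.05 ± 0.06 in control, 0.35 ± 0.20 at 60, 0.59 ± 0.13 at 120 and 0.69 ± 0.02 at 240 ug/ml. The alanine, leucine, isoleucine and methionine pairs were called higher in both compartments at 240 ug/ml, as were the cysteine and serine pairs.

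**Figure D4:**
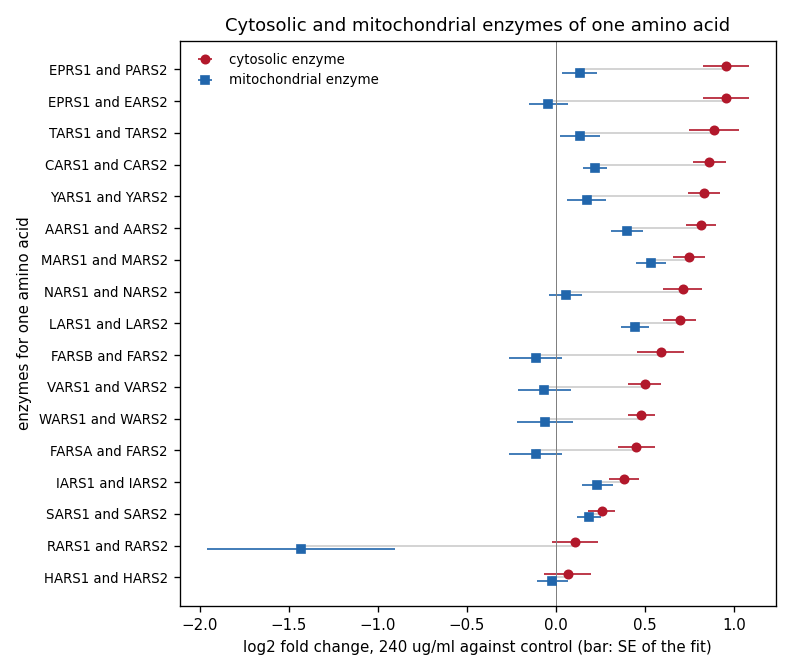
Log2 fold change at 240 ug/ml against control of the cytosolic (circle) and mitochondrial (square) enzyme for each amino acid, with SE of the fit, in order of the cytosolic change. The circle lies to the right of its square in all 17 pairs, and the HARS and SARS pairs lie close together.

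The doses were also compared with each other. From 60 to 240 ug/ml, 8 cytosolic genes were higher and QARS1 lower, where 24.8% of all genes were called, 11.7% higher and 13.1% lower. The 8 were EPRS1 (0.75), TARS1 (0.72), LARS1 (0.55), FARSB (0.53), NARS1 (0.43), GARS1 (0.42), IARS1 (0.39) and CARS1 (0.30), with log2 fold changes in parentheses. Of the mitochondrial genes EARS2 was lower, by limma with an adjusted p of 0.0399, a call lost in 13 of 24 alternatives (log2 fold change from -0.47 to -0.08). Of the same set 0 were higher by limma, or 2 at an unadjusted p under 0.05. The cytosolic count became 5 without replicate 1 of the 60 ug/ml group, 4 without its replicate 2, and 5 without replicate 3 of the 240 ug/ml group. EPRS1, TARS1, LARS1 and IARS1 kept their call in all 24 alternatives. The calls of CARS1, FARSB, NARS1 and GARS1 were lost in 9, 6, 4 and 2 of the 24, and that of QARS1 in 7.

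Neighbouring doses differed less. From 60 to 120 ug/ml 2.15% of all genes were called and 0 of the 35 by limma, and at an unadjusted p under 0.05 there were 8 cytosolic genes higher, 1 lower and 0 mitochondrial genes. Without replicate 3 of the 60 ug/ml group, the library with the highest cytosolic sum in that group, 6 cytosolic genes were called higher. From 120 to 240 ug/ml no gene of the whole table was called by limma (0% of all genes). At an unadjusted p under 0.05 there were 3 cytosolic genes higher and 1 lower, and 1 mitochondrial gene lower.

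How much of the rise at 240 ug/ml was in place at 60 ug/ml was taken as a share of the log2 change for the 15 cytosolic genes called higher, given here with the GC content of the gene's transcripts. The share was 10.6% for FARSB (41.6% GC), 19.2% for TARS1 (43.6%), 20.2% for LARS1 (41.9%), 20.9% for SARS1 (51.8%), 21.3% for EPRS1 (43.0%), 35.1% for GARS1 (48.4%) and 39.7% for NARS1 (43.9%), and it was -2.7% for IARS1 (43.7%). It was 65.7% for CARS1 (52.3%), 66.9% for WARS1 (49.7%), 74.7% for MARS1 (53.5%), 75.7% for AARS1 (53.5%), 88.3% for YARS1 (55.3%), 115% for FARSA (61.5%) and 122% for VARS1 (62.3%). SARS1 and WARS1 are among those that depart from an order by GC content, and no test of that order was made. The part of base composition in the course over doses was not tested.

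Across all genes, the log2 fold change at 60 ug/ml correlated with GC content at r = 0.26, and that at 240 ug/ml at r = -0.11. Genes are not independent replicates, and these values are a description. After a trend with GC content was subtracted, 10 cytosolic genes were higher at 240 than at 60 ug/ml and QARS1 was no longer called. The number of cytosolic genes higher at 240 ug/ml against control was 15 with and without that step.

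**Figure D5:**
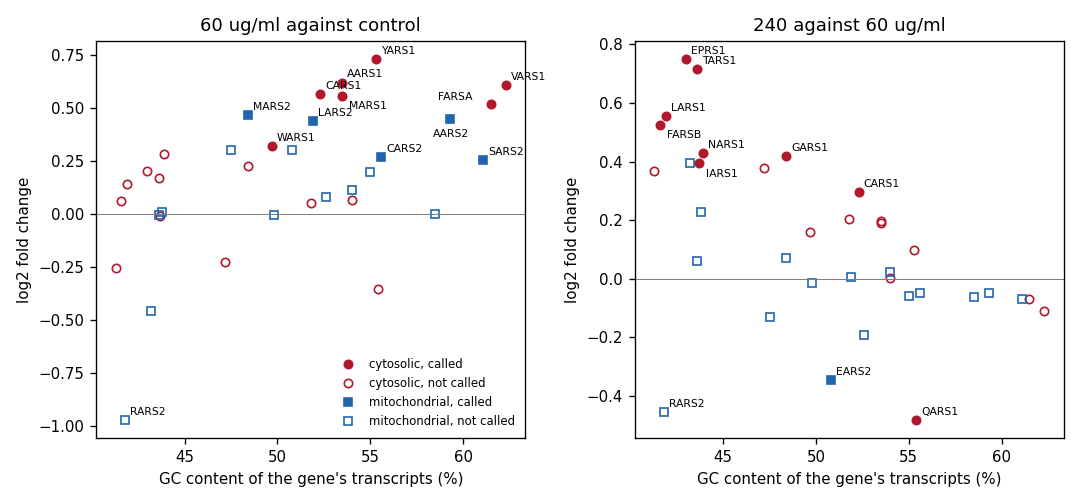
Log2 fold change of the 35 genes against the GC content of their transcripts, at 60 ug/ml against control (left) and at 240 against 60 ug/ml (right), with filled symbols for called genes. The cytosolic genes called at 60 ug/ml lie between 49.7% and 62.3% GC, and those called between 60 and 240 ug/ml between 41.6% and 55.4%.

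Among 8 genes for the proteins that hold the complex together and carry charged tRNA to the ribosome, 5 were lower at 240 ug/ml. Their median log2 fold change over all 8 was -0.33. Among all genes 23.5% were lower at that dose. EEF1A1, the factor that delivers charged tRNA, had a signal of 4766 ± 772 in control and 2353 ± 365 at 240 ug/ml, and its log2 signal fell by 1.02 ± 0.17. EEF1A1 has many near-identical pseudogene copies, so its level is uncertain. EEF1G, EEF1B2 and EEF1D, parts of the exchange factor that reloads it, fell by 0.99, 0.94 and 0.28, and the translocation factor EEF2 by 0.39. The complex scaffolds AIMP1, AIMP2 and EEF1E1 were not called, with log2 fold changes of 0.59 ± 0.37, 0.31 ± 0.15 and -0.24 ± 0.10.

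Of 28 genes that export and mature tRNA, 12 were higher at 60 ug/ml and 14 at both 120 and 240 ug/ml. POP5, a subunit of RNase P, was lower at the 2 higher doses. Among all genes 8.87%, 15.9% and 19.7% were higher at 60, 120 and 240 ug/ml. XPOT, the export receptor for tRNA, had 62.4 ± 0.656 in control and 135 ± 8.62 at 240 ug/ml, a log2 fold change of 1.09 ± 0.09. WDR4, the partner of the tRNA methyltransferase METTL1, rose by 1.02, the pseudouridine synthase PUS1 by 0.99 and the methyltransferase TRMT1 by 0.90. The median over the 28 was 0.31 at 240 ug/ml.

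At 240 ug/ml 43.1% of all genes were called, 19.7% higher and 23.5% lower. Of 9 genes for proofreading and for indirect charging, 1 was called at 240 ug/ml, PSTK, which acts in making selenocysteinyl-tRNA and fell by 0.45. QRSL1, GATB and GATC, the subunits that make glutaminyl-tRNA in mitochondria, were not called, with log2 fold changes of 0.22 ± 0.10, -0.15 ± 0.09 and -0.17 ± 0.08. Of 20 genes for mitochondrial translation and tRNA processing, 11 were higher and 2 lower at 240 ug/ml, with a median of 0.31. Among them the initiation factor MTIF2 rose by 0.72, GTPBP3, a tRNA modifier, by 0.69 and the elongation factor GFM1 by 0.60. HSD17B10, a part of mitochondrial RNase P, fell by 0.62 and the initiation factor MTIF3 by 0.59.

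Genes of the amino acid and integrated stress response, a list of 36 with no synthetase in it, held 26 genes called higher and 1 lower, VLDLR, at 240 ug/ml, with a median of 0.72. At 60 ug/ml 16 were higher and 2, the amino acid transporter SLC38A2 and the transcription factor DDIT3, were lower. At the high dose SLC7A5, an importer of large neutral amino acids, rose by 2.75 ± 0.22 on the log2 scale. Its signal was 22.3 ± 4.40 in control and 155 ± 9.44 at the high dose. DDIT4, CHAC1 and ASNS, known targets of ATF4 and its partners, rose by 2.14, 2.00 and 1.44. The ATF4 mRNA itself was at 11.8 ± 1.17 in control and 13.1 ± 1.31 at 240 ug/ml, with an adjusted p of 0.476, and ATF4 is regulated largely in translation, which was not measured. GCN1, the activator of GCN2, rose by 0.62 and EIF2AK4 by 0.34. The part of this response in the levels of the synthetases was not tested.

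Some sums may hold signal from neighbours. Of the 35 genes, 27 overlap another gene of any type in the annotation, and 12 overlap another protein-coding gene. The sources used here do not give the strand setting of the quantification. Among protein-coding genes on the same strand, SARS2 overlaps AC011455.2 by 15493 bases, VARS2 overlaps GTF2H4 by 5865 and HARS2 overlaps ZMAT2 by 639. MARS2 is overlapped on the same strand over its whole 3019 bases by AC011997.1, a gene annotated as antisense. AARS2 overlaps AL353588.1 by 13673 bases on the opposite strand. These are spans of genes, introns included. HARS1 and HARS2 overlap each other by 437 bases on opposite strands. MARS1 overlaps DDIT3, itself a stress gene called higher at 240 ug/ml (0.33), by 982 bases on the opposite strand.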

How the data were processed

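RNA was measured in 12 libraries of HK-2 cells, 4 groups of 3, with groups taken from the titles of the samples. By the labels' protocols poly(A) RNA was selected, copied with random primers and read in pairs on a DNBSEQ instrument, with dUTP in the second strand. The authors deposited 1 value for each of 267165 transcripts, read here as a normalized signal: values are not whole, and library totals have a geometric mean of 999925. The submitters' processing notes name build GRCh38.p14, while no source used here gives the aligner or the quantification tool with its settings. Such values keep no read depth, so no counting interval could be given.

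Transcripts were matched without version to GENCODE release 29 (202246, 75.7%), covering 93.71% to 94.63% of the total per library, and summed per gene. A gene was kept if 3 or more libraries had a value of 1 or higher. limma 3.58.1 in R 4.3.3 was fitted with a trend to log2(value + 1), with 4 group means over 12 libraries, and adjusted p-values are two-sided Benjamini-Hochberg values over 16776 genes, called under 0.05. Fold changes on this scale understate those of low genes. In simulated libraries made for the comparison of 240 ug/ml with control (16776 genes), the fit found 54% of changes sized 0.5 on the log2 scale. It found 96% at size 1, 96% at size 2 and 100% at size 3, and 11 of its 184 calls were false. Changes were placed only in genes above a floor on the control signal, a small part of all genes, with independent noise. In the data 43.1% of genes were called, so these rates need not hold there, nor for genes as low as VARS2.

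The members, the lists and the tests were chosen with earlier results of these data known. Values by library are given for the 5 cytosolic and 4 mitochondrial members with the largest rise at 240 ug/ml, for up to 3 of each with the largest fall (QARS1 alone among the cytosolic) and for GARS1, KARS1, QARS1 and EPRS1. VARS1 and WARS2 were added after their values were seen. Partner lists are named by up to 4 called genes with the largest change, and others by role. Same-numbered libraries correlated at -0.0247 to 0.236 in their deviations from group means and others at -0.21 to 0.111. Not every same-numbered correlation was above 0.1, so numbers were not taken as pairs. Alternatives were the pseudocount, the filter, the scaling, protein-coding transcripts only, GC and length trends, a replicate block, the 6 compared libraries alone and each library left out. Leaving out the replicate 3 libraries together was added after the data were seen.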

Additional observations from a re-analysis of the deposited data

How the results depend on the processing

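The count of cytosolic genes higher at 240 ug/ml ranged from 14 to 15 over the leave-one-out fits, and at 120 ug/ml from 10 to 13. At 60 ug/ml it ranged from 6 to 9. The mitochondrial count ranged from 1 to 6 at 60, 4 to 5 at 120 and 2 to 6 at 240 ug/ml. Between 60 and 240 ug/ml the ranges were 4 to 10 cytosolic and 0 to 2 mitochondrial genes, and between 60 and 120 ug/ml 0 to 6 cytosolic genes. These ranges include the fit without all replicate 3 libraries, which gave 1 mitochondrial gene at 60 and 2 at 240 ug/ml, 2 cytosolic genes between 60 and 120 ug/ml, and 2 mitochondrial genes between 60 and 240 ug/ml. Equal library totals gave 11 cytosolic and 8 mitochondrial genes higher at 60, 11 mitochondrial at 120 and 12 mitochondrial at 240 ug/ml. The same scaling gave 1 cytosolic gene between 60 and 120 ug/ml, and 15 cytosolic and 2 mitochondrial genes between 60 and 240 ug/ml. At 240 ug/ml it turned the negative values of EARS2 to 0.36, HARS2 to 0.40, FARS2 to 0.28, VARS2 to 0.18 and WARS2 to 0.34, since it moves all genes up. Subtracting the GC trend gave 8 mitochondrial genes at 120 ug/ml, and protein-coding transcripts only gave 3 at 240 ug/ml. Between 60 and 120 ug/ml, 1 cytosolic gene was higher with a value of at least 1 in all 12 libraries, 1 with protein-coding transcripts and 3 with quantile normalization. Between 60 and 240 ug/ml, quantile normalization gave 1 mitochondrial gene, and the 6 compared libraries alone gave 4 cytosolic genes. The replicate block gave 8, 13 and 15 cytosolic and 5, 5 and 6 mitochondrial genes higher at the 3 doses. It gave 3 cytosolic genes between 60 and 120 ug/ml, and 11 cytosolic and 2 mitochondrial genes between 60 and 240 ug/ml, and the numbers were not shown to pair the libraries. The cause of these differences was not tested. The unknown read depth limits what can be said of low genes such as VARS2 and RARS2.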
